A study of Mus musculus with 10 samples.

Results

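The serum amyloid A family of the mouse consists of Saa1, Saa2, Saa3 and Saa4, and its transcripts were followed in the terminal ileum of 5 control mice and 5 mice exposed to repeated social defeat. The members were chosen by gene symbol, with their levels in these mice already known, so the differences between the groups given for them are descriptions and carry no test. All 4 genes were on the array, out of 18193 genes with a single symbol, and were read by 6 probe sets. Where a gene had several probe sets, the one that was brightest on average was read, and 3 of the 4 genes passed the filter on low values that left 13666 genes for testing.

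The mice were males of the strain C57BL/6JJmsSlc, aged 7 weeks, singly housed at the start and fed the purified AIN-93G diet. Stressed mice met an aggressive retired male of the ICR strain for 10 days, with 5 min of contact on the first day, 0.5 min less on each later day and 0.5 min on the last. Control mice were left undefeated, and all mice were fasted for 3 h before the lower small intestine was taken. Each mouse gave 1 array of whole-tissue RNA, so a lower level can reflect fewer cells of a type or less RNA per cell, and these cannot be told apart.

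Serum amyloid A proteins are small apolipoproteins that travel on high-density lipoprotein and rise steeply in the acute-phase response, when interleukin-1, interleukin-6 and tumour necrosis factor switch on their genes in the liver. In the ileum the epithelium itself makes them in response to attached bacteria, through interleukin-22 from lymphocytes and the transcription factor STAT3, and the secreted proteins bind retinol and promote T helper 17 responses. Saa1 and Saa2 are close copies, Saa3 is also made by macrophages, fat cells and the epithelium of the large intestine, and Saa4 is a constitutively made form of the liver.

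The 4 genes lie next to one another on chromosome 7 in the order Saa3, Saa4, Saa1, Saa2 in the RefSeq table of GRCm38.p6. The 250 bases before the start site are shown for the members whose levels differed between mice, because the start regions of Saa1 and Saa2 are nearly the same sequence and that of Saa3 is not. Capitals mark matches on either strand to TTGCNNAA, a C/EBP-type motif. The windows, from RefSeq with each gene read 5′ to 3′, are chr7:46742981-46743230 on the minus strand for Saa1, chr7:46751583-46751832 on the plus strand for Saa2 and chr7:46715677-46715926 on the minus strand for Saa3.
Saa1: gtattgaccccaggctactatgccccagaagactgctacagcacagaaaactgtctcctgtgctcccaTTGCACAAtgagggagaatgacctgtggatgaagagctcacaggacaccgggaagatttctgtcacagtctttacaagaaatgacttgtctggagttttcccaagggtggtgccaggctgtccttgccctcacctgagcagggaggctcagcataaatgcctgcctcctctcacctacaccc
Saa2: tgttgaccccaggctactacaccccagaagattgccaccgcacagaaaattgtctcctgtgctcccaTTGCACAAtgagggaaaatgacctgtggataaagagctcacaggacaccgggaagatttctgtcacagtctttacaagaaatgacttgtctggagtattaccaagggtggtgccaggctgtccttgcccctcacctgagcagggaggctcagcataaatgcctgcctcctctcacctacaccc
Saa3: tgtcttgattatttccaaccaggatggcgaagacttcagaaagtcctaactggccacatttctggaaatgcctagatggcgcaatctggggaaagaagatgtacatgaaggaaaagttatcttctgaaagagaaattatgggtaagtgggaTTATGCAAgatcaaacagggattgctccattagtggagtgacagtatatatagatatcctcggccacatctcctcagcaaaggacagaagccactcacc

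Aligned over their whole length with gaps at the ends not counted, the Saa1 and Saa2 windows were identical at 238 of 250 columns, or 95.2%, with 11 mismatches and 1 gap. Identity to the Saa3 window was 50.4% for Saa1 and 49.1% for Saa2. The C/EBP-type motif began 182 bases before the start site in Saa1, 183 before it in Saa2 and 99 before it in Saa3, and the Saa4 window held 2 matches. It occurred in 9.56% of the 32851 windows of the same length in the table. Saa1, Saa2 and Saa4 also held a loose NF-kB-type motif, 3 G and 2 C with 5 free bases between them, which 45.8% of all windows hold, and the retinoic acid receptor half-site AGGTCA, in 14% of all windows. No match to the STAT-type motif TTCNNNGAA was found in any of the 4 windows, against 7.02% of all windows. Such matches describe letters and not bound sites.

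A pair of arrays stood apart from their groups. Control mouse 1 correlated with the other 9 arrays at 0.918 to 0.947 across the tested genes, while those 9 correlated with one another at 0.975 to 0.995. Its level of Fabp6, the ileal bile acid-binding protein, was 7.88 on the log2 scale, against 13.88 to 14.10 on the other arrays, so its ileum label was not borne out by this marker. Car1, a carbonic anhydrase of the large intestine, was at 14.17 in control mouse 1 and 13.32 in stressed mouse 4, and at 4.95 to 7.41 in the other 8 mice. Aqp8, a water channel of the large intestine, was at 7.50 and 7.26 in the same mice and at 4.15 to 4.49 elsewhere. Of 8 large-intestine markers on the array, Car1 and Aqp8 passed the filter. Hoxd10, below the filter on average, was at 7.30 in control mouse 1 and 4.46 in stressed mouse 4, against 2.34 to 2.99 in the others. The other 5, Hoxb13, Hoxd11, Hoxd12, Hoxd13 and Hoxa11, were at 2.65 to 4.40 on every array. Of these Hoxa11 was highest in control mouse 1, at 4.06 against 2.91 to 3.53 on the other arrays. Values are therefore given for all 10 mice, without control mouse 1 and, where it matters, without stressed mouse 4 as well.

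Saa1 transcripts were abundant and uniform in control mice and lower, by amounts that differed widely from mouse to mouse, in every stressed mouse. On the log2 scale Saa1 was at 13.01, 13.28, 12.90, 13.25 and 13.10 in control mice 1 to 5. In stressed mice 1 to 5 it was at 11.51, 12.39, 10.39, 10.38 and 6.94. The groups did not overlap, since the highest stressed mouse lay below the lowest control, and stressed mouse 5 lay far below the other 4 stressed mice. Controls averaged 13.11 ± 0.16 (SD, n = 5), and the stressed group averaged 10.32 ± 2.07 (SD, n = 5). The difference of stressed minus control was -2.79 ± 0.79 (SE), a level 6.90-fold lower, and it was -2.81 ± 0.82 (SE) without control mouse 1. Without stressed mouse 5 the difference was -1.94 ± 0.37 (SE).

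Relative to the control mean, the Saa1 level was 1.65-fold lower in stressed mouse 2, 3.04-fold lower in stressed mouse 1, 6.57-fold and 6.63-fold lower in stressed mice 3 and 4, and 71.7-fold lower in stressed mouse 5. The span from the lowest to the highest mouse was 43.5-fold among stressed mice and 1.30-fold among controls. Control mouse 1, in spite of its low Fabp6, had a Saa1 level inside the range of the other controls.

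A second probe set carries the Saa1 symbol, and the suffix of its name, 1419075_s_at, denotes probes shared by several transcripts. The transcript it was designed on belongs to Saa2 in the RefSeq table, whereas that of the probe set used here, 1450788_at, belongs to Saa1. The shared probe set was at 12.51 to 12.96 in control mice, with a median of 12.81. In stressed mice 1 to 5 it was at 10.73, 11.78, 9.59, 9.55 and 6.19, the same order of mice as for 1450788_at and again without overlap. Its difference was -3.22 ± 0.77 (SE), in a fit over all probe sets with 1 symbol.

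Saa2, the near copy of Saa1, followed nearly the same order of mice, with mice 3 and 4 close together and in the opposite order. Its probe set, 1449326_x_at, spanned a narrower range than the shared probe set designed on a Saa2 transcript. Since the shared probe set reads several transcripts, a range of the gene and a range of the probe set cannot be told apart. The suffix of 1449326_x_at denotes probes able to bind other transcripts. Saa1 transcripts may therefore add to its signal, and the pair are not independent measures. Saa2 was at 9.41, 9.72, 9.47, 9.64 and 9.86 in control mice 1 to 5. It was at 8.11, 8.86, 7.31, 7.40 and 5.75 in stressed mice 1 to 5. Again every stressed mouse lay below every control, with mouse 2 nearest to the controls and mouse 5 farthest from them. The group values were 9.62 ± 0.18 (SD, n = 5) and 7.49 ± 1.15 (SD, n = 5). The difference was -2.14 ± 0.45 (SE), or 4.40-fold lower, and -2.19 ± 0.46 (SE) without control mouse 1. Without stressed mouse 5 it was -1.70 ± 0.28 (SE).

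**Figure D1:**
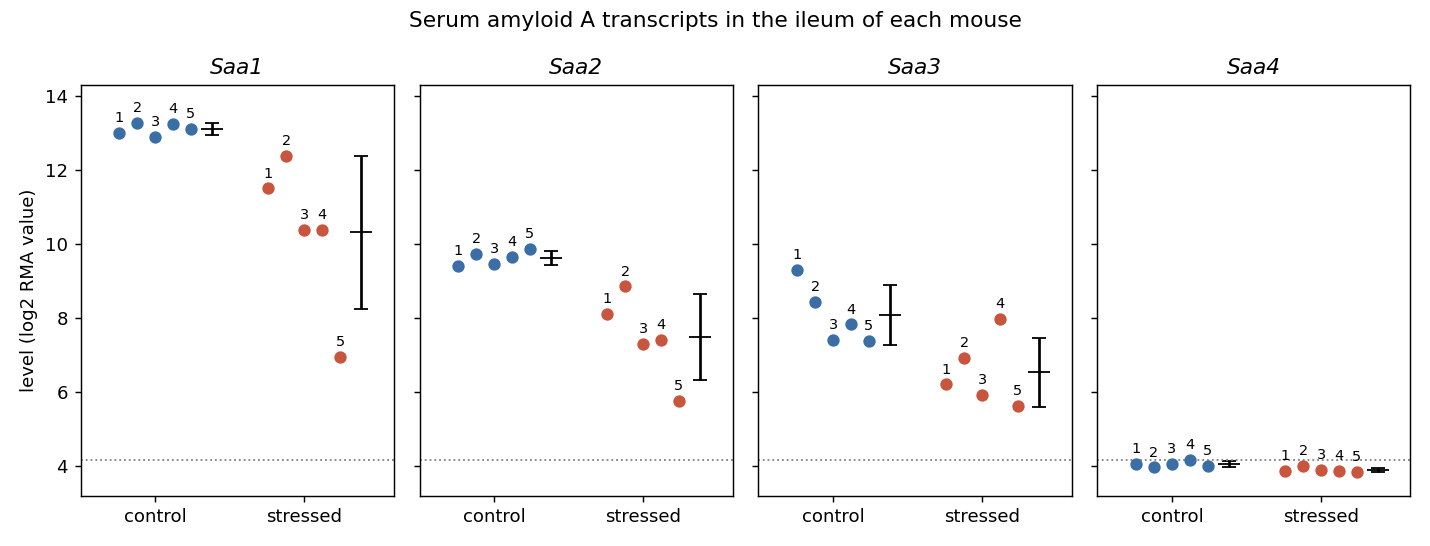
Levels of Saa1, Saa2, Saa3 and Saa4 in each mouse, on the log2 scale of the deposited values. Each point is 1 mouse with its number, the black bar is the group mean with its SD (n = 5), and the dotted line is the filter at 4.15. Saa1 and Saa2 separate the groups and Saa3 overlaps through stressed mouse 4 at 7.98. Saa4 lies close to the filter in both groups, and below it in every stressed mouse.

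The deviations of Saa1 and Saa2 from their group means had a Pearson r of 0.98 and a Spearman rho of 0.81 over the 10 arrays, and 0 of the other named genes tested had a higher r with Saa1. Without stressed mice 5 and 2, the arrays farthest from the median, r was 0.87. The distance between 1450788_at and 1449326_x_at did not stay the same: the first stood 2.98 to 3.60 above the second in 9 mice and 1.19 above it in stressed mouse 5. These are distances between probe sets, and the shared probe set, at 6.19 in that mouse, stayed within 0.83 of 1450788_at in every mouse. That distance also differed between the groups, at 0.19 to 0.40 in control mice and 0.61 to 0.83 in stressed mice.

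**Figure D2:**
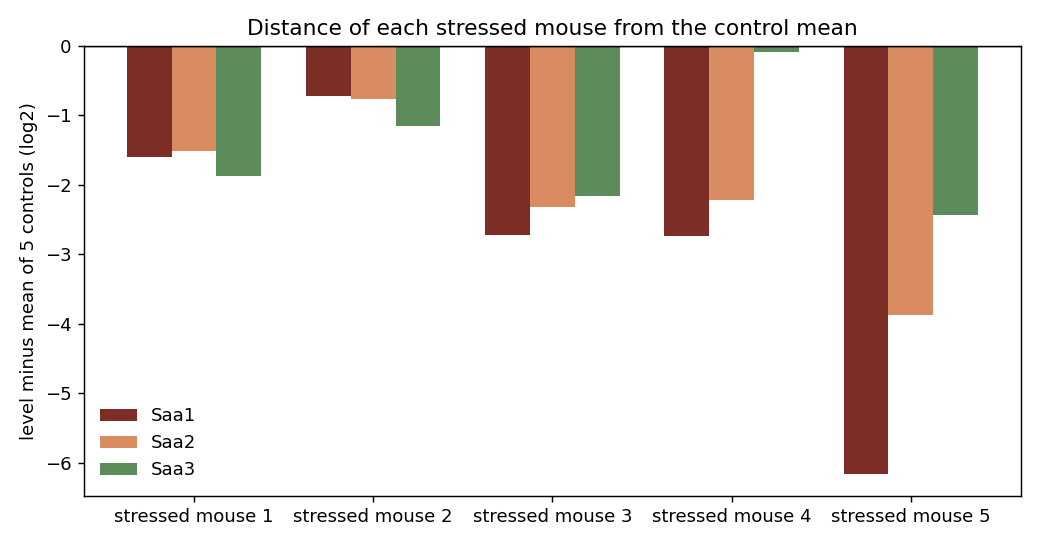
Level of Saa1, Saa2 and Saa3 in each stressed mouse minus the mean of the 5 controls, in log2 units. Saa1 reaches -6.16 in stressed mouse 5 and Saa3 is at -0.09 in stressed mouse 4, where Saa1 is at -2.73.

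Saa3 was lower in 4 of 5 stressed mice than in any control, and its order of mice differed from that of Saa1 and Saa2. It was at 9.30, 8.44, 7.40, 7.83 and 7.39 in control mice 1 to 5. It was at 6.20, 6.91, 5.91, 7.98 and 5.64 in stressed mice 1 to 5. The groups overlapped through stressed mouse 4 alone, which lay above 3 of the controls, and control mouse 1 was the highest of all. The group values were 8.07 ± 0.81 (SD, n = 5) and 6.53 ± 0.94 (SD, n = 5), and the difference was -1.54 ± 0.47 (SE), or 2.91-fold lower. It was -1.24 ± 0.41 (SE) without control mouse 1.

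The mice with the highest Saa3 of their groups were the mice with large-intestine transcripts. Without control mouse 1 and stressed mouse 4 the Saa3 groups were 7.77 ± 0.50 (SD, n = 4) and 6.17 ± 0.55 (SD, n = 4), and the difference was -1.60 ± 0.29 (SE). The groups then did not overlap, which follows from leaving out stressed mouse 4, the only mouse through which they had overlapped. Car1, Aqp8 and Hoxd10 were high in both of these mice. The other 5 large-intestine markers were not high in both, although Hoxa11 was highest in control mouse 1, at 4.06. In control mice 2 to 5 Car1 was at 7.06, 5.27, 5.46 and 4.95, the same order of mice as for Saa3. In the stressed mice other than mouse 4 the orders differed. There, stressed mouse 1 had Car1 at 7.41 and Saa3 at 6.20, and stressed mouse 2 had Car1 at 4.95 and Saa3 at 6.91. The part of large-intestine tissue in the Saa3 level was not tested. The differences of Saa1 and Saa2 on the same 8 arrays were -2.83 ± 0.91 (SE) and -2.17 ± 0.51 (SE).

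**Figure D3:**
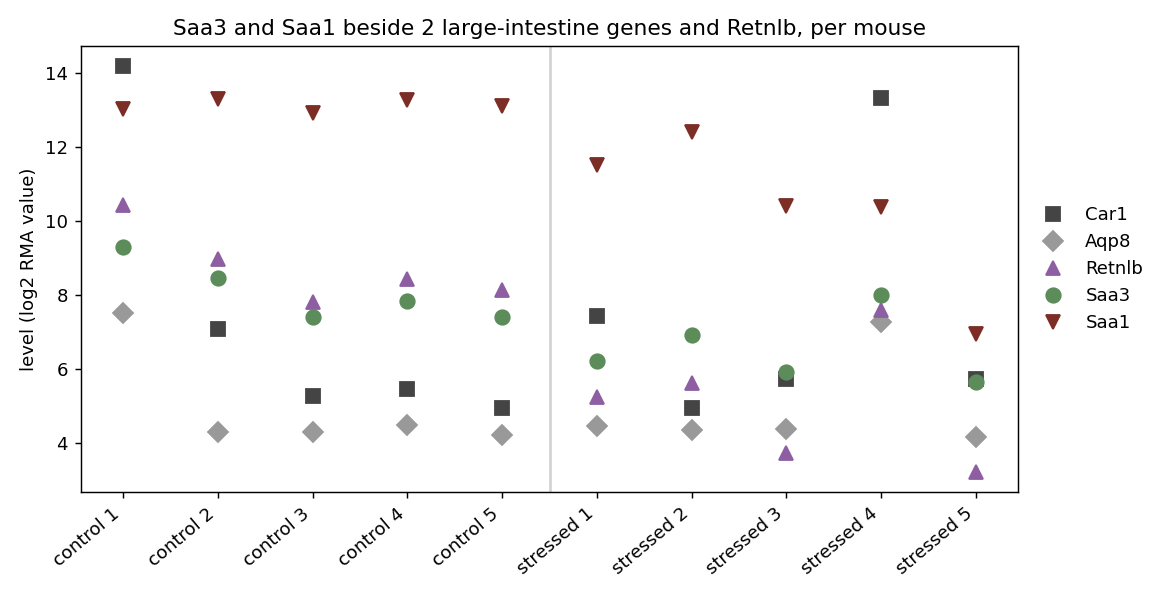
Levels per mouse (log2) of Saa3 and Saa1 beside Car1 and Aqp8, genes of the large intestine, and Retnlb. Control mouse 1 and stressed mouse 4 are high in Car1 (14.17 and 13.32) and have the highest Saa3 and Retnlb of their groups, while Saa1 in stressed mouse 4 (10.38) is level with stressed mouse 3 (10.39).

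Saa4, the constitutive member, was at a low level, close to the filter on low values, in all mice. Its better probe set was at 3.96 to 4.17 in control mice, with a median of 4.06, and at 3.84 to 4.0 in stressed mice, with a median of 3.87. The groups overlapped, and the mean over all arrays, 3.97, was below the filter at 4.15. The difference was -0.16 ± 0.07 (SE) in a fit without the filter, and a second probe set gave -0.19 ± 0.12 (SE). At such levels a change in transcript number is understated on this scale.

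Against all genes tested, with the reminder that the members were chosen in this contrast, the 3 measured members were counted as follows. With 10 arrays limma called 0 of 13666 genes at a Benjamini-Hochberg adjusted p under 0.05, or 0%, and so 0 of the 3 members, while 1069 genes were at an unadjusted p under 0.05. Without control mouse 1 it called 109 genes, or 0.798%, and again 0 of the 3 members. Every stressed mouse was below every control for 1.12% of genes with 10 arrays, Saa1 and Saa2 among them, and for 2.72% without control mouse 1. Without control mouse 1 and stressed mouse 4 the share was 3.11%, and Saa3 joined them. The Saa3 groups had overlapped through stressed mouse 4 alone, so their separation follows from leaving that mouse out. A mean at least 4-fold lower was found for 6 genes, or 0.0439%, which were Retnlb, Saa1, Fut2, Igkv6-14, B3galt5 and Saa2, in that order.

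The spread between mice set Saa1 and Saa2 apart in description. Saa1 had the second largest SD among stressed mice of all genes tested, and Saa2 ranked 13 and Saa3 ranked 22. An SD under 0.2 among the 5 controls together with an SD of at least 1 among the stressed mice was found for 2 genes, or 0.0146%, and these were Saa1 and Saa2. With control mouse 1 left out 5 genes, or 0.0366%, met both limits, which were chosen after the values had been seen. Aqp8, which was at 7.26 in stressed mouse 4, was among the additional genes.

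**Figure D4:**
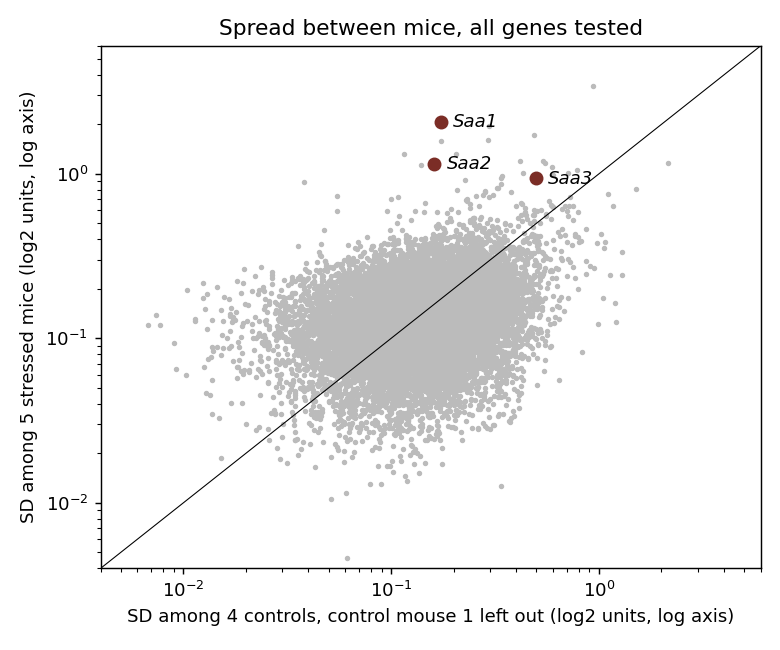
SD among the 5 stressed mice against SD among 4 controls, with control mouse 1 left out, for the 13666 genes tested, both on log axes in log2 units. The line marks equal spread, and Saa1 (2.07 against 0.17) and Saa2 (1.15 against 0.16) lie far above it, whereas Saa3 is at 0.94 against 0.50.

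Genes whose deviations from the group means were most like those of Saa1 over the 10 arrays were the transmembrane serine proteases Tmprss4 (r = 0.93, rho = 0.70) and Tmprss2 (r = 0.91, rho = 0.58), Gtf2ird1 (r = 0.91, rho = 0.64), Ide (r = 0.91, rho = 0.58), Zfp324 (r = 0.90, rho = 0.93) and Pigr (r = 0.90, rho = 0.73). Pigr encodes the receptor that carries IgA across the epithelium, and Ide is the insulin-degrading enzyme. Their own ranges were narrow, 9.29 to 9.75 for Tmprss4 and 12.15 to 13.08 for Pigr, and stressed mouse 5 was the lowest for each of these 6 genes. Without stressed mice 5 and 2 the 6 values of r were 0.37 to 0.71, so the likeness rests largely on those mice. For Saa2 the 6 genes were Jade2, Tmprss2, Tmprss4, Tgs1, Ptprj and Zfp324, with r of 0.89 to 0.92, or 0.29 to 0.67 without the same mice.

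The gene most like Saa3 was Retnlb, the gene of a goblet cell protein with antibacterial activity. Its deviations gave r = 0.96 and rho = 0.94 with Saa3 over the 10 arrays, and r = 0.87 without stressed mouse 4 and control mouse 1. Retnlb was at 10.41, 8.95, 7.80, 8.41 and 8.12 in control mice 1 to 5 and at 5.23, 5.63, 3.72, 7.58 and 3.21 in stressed mice 1 to 5. The stressed mice stood in the same order for both genes. The next 5 genes were Ttc6, Zbtb22, Prkce, Medag and Gsdmc2, a gasdermin of the epithelium, with r of 0.92 to 0.95. Without stressed mouse 4 and control mouse 1 their r was 0.70 to 0.79. All of these correlations are descriptions picked from the tested genes by their size, and every gene was read on the same arrays.

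The genes on either side of the cluster did not share the difference. Sergef, Tph1 and Saal1 come before it, and Hps5, Gtf2h1 and Ldha after it. Their differences with 10 arrays ran from -0.21 ± 0.39 (SE) for Tph1, the tryptophan hydroxylase of serotonin-making cells, to 0.13 ± 0.09 (SE) for Gtf2h1, and 0 of the 6 were called by limma with or without control mouse 1. Tph1 was at 7.98 in control mouse 1 and turned to 0.23 without that mouse. Ldha, lactate dehydrogenase A, differed by -0.03 ± 0.07 (SE).

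Regulators of the family, receptors, partners and genes of the same kind of response were followed through 10 lists, which held 129 different genes tested. With 10 arrays 0 of the 129 were called in either direction, as for all genes, and without control mouse 1 limma called 5, all lower, against 0.798% of all genes tested called in either direction and 0.534% called lower. Those that fell were Nfkbiz, Fut2, Nos2, Duoxa2 and Apoc2. All 10 lists were chosen with earlier results of these data known. The share called within them therefore describes the lists and is not a test of them. The median difference without control mouse 1 was 0.00 over the 129 genes and 0.03 over all genes tested.

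In the interleukin-22, interleukin-6 and STAT3 list 0 of 13 genes were called with or without control mouse 1, and the median difference was 0.08 with 10 arrays. Il22ra2, a soluble receptor that binds and blocks interleukin-22, differed by -0.24 ± 0.10 (SE, limma adjusted p = 0.616). The kinase gene Jak2 differed by 0.30 ± 0.11 (SE, limma adjusted p = 0.511) and the interleukin-6 receptor gene Il6ra by 0.33 ± 0.20 (SE, limma adjusted p = 0.749). Socs3, a target of STAT3 that limits the same pathway, named here after its values were seen, was at 6.65, 9.97, 10.40, 8.58 and 9.93 in control mice 1 to 5. In stressed mice 1 to 5 it was at 7.95, 8.68, 7.67, 8.07 and 9.10. Its difference was -0.81 ± 0.62 (SE) with 10 arrays and, with control mouse 1 left out, -1.43 ± 0.36 (SE, limma adjusted p = 0.0829) on the other 9, and stressed mouse 5, lowest for Saa1, was the highest stressed mouse for Socs3. The cytokine genes Il6, Il11, Osm, Il23a and Il12b were below the filter.

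In the interleukin-1, tumour necrosis factor and NF-kB list 15 of 19 genes lay lower by value with 10 arrays, 0 were called, and 1 fell without control mouse 1. That gene was Nfkbiz, an inducible cofactor of NF-kB at target genes. It was at 8.00, 9.70, 9.16, 9.21 and 9.02 in control mice 1 to 5 and at 8.21, 8.41, 8.07, 8.30 and 8.19 in stressed mice 1 to 5. Control mouse 1 lay below every stressed mouse and the other controls above them. The difference was -0.78 ± 0.25 (SE, limma adjusted p = 0.446) with 10 arrays and, with control mouse 1 left out, -1.04 ± 0.13 (SE, limma adjusted p = 0.0184) on the other 9, and that call held with each of the other 9 arrays left out as well. Il18, a cytokine of epithelial cells, differed by -0.84 ± 0.30 (SE) and Tnf by -0.33 ± 0.13 (SE), and limma gave both an adjusted p of 0.0636 when control mouse 1 was left out.

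Of 11 transcription factors of acute-phase genes 0 were called in either set of arrays. Cebpd, which binds C/EBP motifs and is itself induced in the acute phase, was at 9.01, 9.08, 9.31, 8.76 and 8.33 in control mice and at 8.42, 8.39, 8.57, 8.31 and 8.21 in stressed mice. The groups overlapped through control mouse 5, and the difference was -0.52 ± 0.16 (SE, limma adjusted p = 0.441). Among 12 genes of glucocorticoid signalling, the hormone axis of stress, 0 were called. Hsd11b1, which regenerates active glucocorticoid, differed by -0.32 ± 0.12 (SE), its companion in the list Nr5a2 by 0.26 ± 0.15 (SE) and the induced target Tsc22d3 by -0.20 ± 0.19 (SE).

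Receptors reported for serum amyloid A proteins showed 0 calls among 9 genes. Tlr2, which senses bacterial lipopeptides, was at 8.59 in control mouse 1 and 5.78 in stressed mouse 4 and at 5.18 to 5.85 in the others. Its difference was -0.78 ± 0.53 (SE) with 10 arrays and -0.17 ± 0.14 (SE) without control mouse 1. Fpr2, the formyl peptide receptor for which these proteins are ligands, was at 4.06 to 4.63 in control and 4.0 to 4.42 in stressed mice.

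Of 16 genes of retinol carriage and retinoic acid reception, the cargo side of these proteins, 13 lay higher by value in both sets of arrays and 0 were called. Rdh7, a retinol dehydrogenase, was at 3.35 in control mouse 1 against 7.39 to 8.26 in the other controls, and its difference was 1.69 ± 0.80 (SE) over 10 arrays, or 0.79 ± 0.27 (SE, limma adjusted p = 0.161) when that mouse was left out. Lrat, which stores retinol as esters, differed by 0.48 ± 0.24 (SE). Of 14 partners in high-density lipoprotein 1 fell without control mouse 1 and 0 were called with 10 arrays. This was Apoc2, the activator of lipoprotein lipase, at 7.98 to 8.26 in control mice 2 to 5, 5.48 in control mouse 1 and 7.08 to 7.82 in stressed mice. Its difference without control mouse 1 was -0.68 ± 0.13 (SE, limma adjusted p = 0.0361), a call that held with 2 of the other 9 arrays left out in turn.

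Other acute-phase proteins did not share the size of the Saa1 and Saa2 differences. Of 21 such genes on the array 12 were below the filter, among them Orm1, Orm2, Hpx and the fibrinogen chains Fga, Fgb and Fgg, which the liver makes. Of the 9 tested, 0 were called in either set of arrays and the median difference was -0.04 with 10 arrays. Serpina3n, a protease inhibitor, differed by -0.53 ± 0.15 (SE, limma adjusted p = 0.388), and Lbp, the lipopolysaccharide-binding protein, by -0.36 ± 0.11 (SE, limma adjusted p = 0.446). Lcn2, the iron-sequestering lipocalin, was at 5.09 to 5.35 in control and 4.64 to 5.23 in stressed mice.

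Microbe-responsive genes of the ileal epithelium, the setting in which Saa1 and Saa2 are induced in the gut, lay lower in stressed mice in 16 of 17 tested members without control mouse 1 and in 11 of 17 with 10 arrays. Of these 3 fell without control mouse 1 and 0 were called with 10 arrays, and the list median was -0.37 and -0.39. Fut2, the fucosyltransferase of the epithelial surface, was at 9.16, 8.54, 7.73, 8.13 and 9.07 in control mice and at 6.05, 6.81, 5.25, 5.85 and 5.10 in stressed mice. The groups did not overlap, and stressed mice 2, 1, 4, 3 and 5 stood in the order they had for Saa2. The difference was -2.71 ± 0.35 (SE, limma adjusted p = 0.0605) with 10 arrays and, with control mouse 1 left out, -2.56 ± 0.34 (SE, limma adjusted p = 0.0184) on the other 9, a call lost when stressed mouse 4 was left out too.

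Duoxa2, the maturation factor of an epithelial hydrogen peroxide-producing oxidase, was at 6.24 to 7.72 in control mice 2 to 5, at 4.68 in control mouse 1 and at 4.69 to 5.46 in stressed mice. Its difference without control mouse 1 was -1.98 ± 0.27 (SE, limma adjusted p = 0.0184), lost when control mouse 3 or stressed mouse 4 was left out too. Nos2, the inducible nitric oxide synthase, differed by -0.67 ± 0.11 (SE, limma adjusted p = 0.0301) on 9 arrays, control mouse 1 left out, and the call held with 3 of the other 9 arrays left out in turn. Reg3g, a bactericidal lectin named after its values were seen, was at 9.39 in control mouse 1 and 13.96 to 14.19 in the other controls. In stressed mice 1 to 5 it was at 13.42, 13.87, 13.24, 13.19 and 12.61, the order of mice seen for Saa1, over a far narrower range. Ccl28, a chemokine for IgA-secreting cells, differed by -0.63 ± 0.15 (SE, limma adjusted p = 0.345). The relation of these orders to Saa1 was noticed in the values and was not tested.

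**Figure D5:**
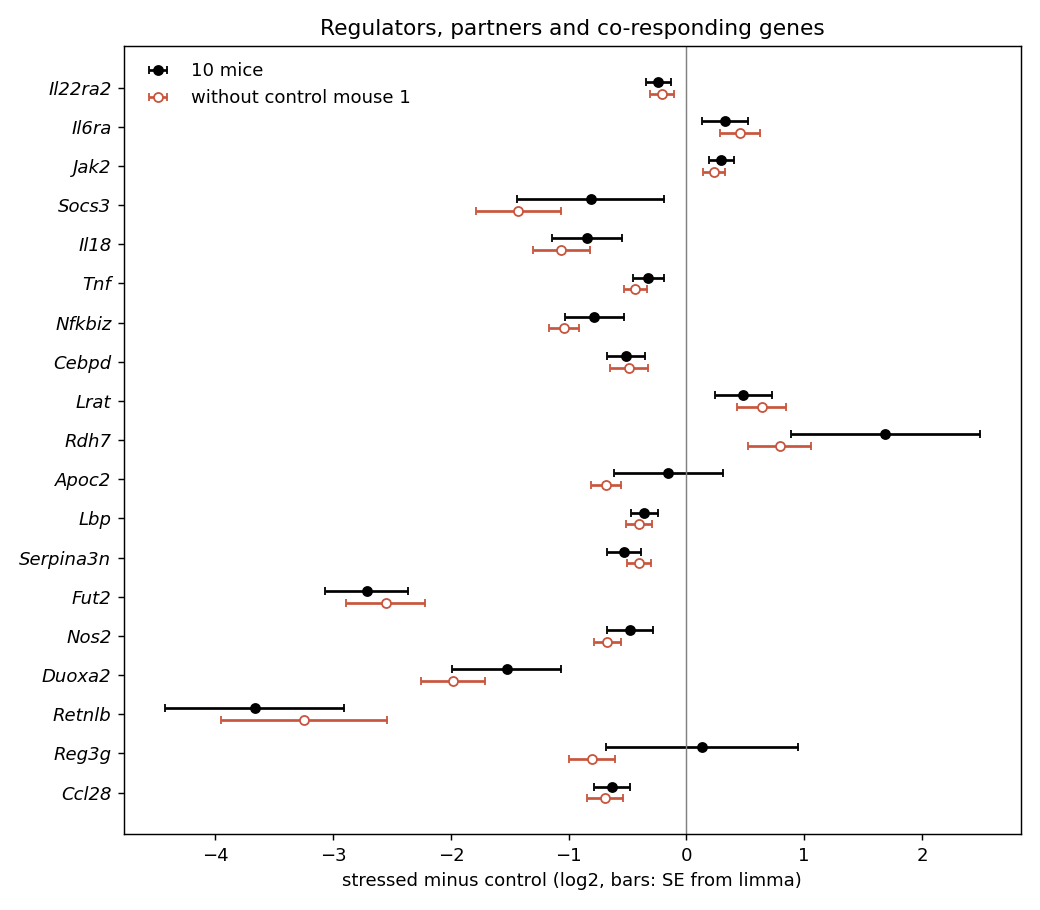
Difference of stressed minus control (log2) with its SE from limma for 19 genes of the signalling route, partners and co-responding genes, with all 10 mice (filled) and without control mouse 1 (open). Retnlb and Fut2 show the lowest values, and Reg3g moves from 0.13 to -0.80 when control mouse 1 is left out.

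Genes of T helper 17 and group 3 innate lymphoid cells, which supply interleukin-22 and interleukin-17, gave 0 calls among 9 tested. Ccr6 differed by -0.41 ± 0.13 (SE, limma adjusted p = 0.446), Ltb by -0.43 ± 0.15 (SE) and Id2 by 0.48 ± 0.11 (SE, limma adjusted p = 0.329), while Il17a, Csf2, Ncr1 and Tnfsf11 were below the filter.

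Markers of other cells that could carry these transcripts were read beside the members. The mean of 10 macrophage markers was 7.73 ± 0.17 (SD, n = 5) in controls, and 7.63 ± 0.11 (SD, n = 5) under stress, and the mean of 5 adipocyte markers was 7.29 ± 0.52 (SD, n = 5) and 7.44 ± 0.39 (SD, n = 5). Of hepatocyte markers 6 of 7 on the array were tested, their mean was 5.74 ± 0.08 (SD, n = 5) and 5.71 ± 0.17 (SD, n = 5), and albumin (Alb) was at 3.93 to 4.58 over all mice. Of these Tat, tyrosine aminotransferase, differed by -1.30 ± 0.24 (SE, limma adjusted p = 0.252) with 10 arrays. It was called at -1.34 ± 0.25 (SE, limma adjusted p = 0.0347) with control mouse 1 left out, which held with 2 of the other 9 arrays left out in turn. Of 9 neutrophil markers 4 passed the filter and 5, including S100a8 and S100a9, did not. All 4 lay lower by value in stressed mice, and their mean was 4.55 to 4.74 in stressed mice, 4.81 to 5.18 in control mice 2 to 5 and 4.57 in control mouse 1. Their sum ran from 6.70 to 7.23 in control and from 6.63 to 6.81 in stressed mice. Among them Ltf, lactoferrin, was at 3.59 to 4.92 over all mice and differed by -0.39 ± 0.22 (SE, limma adjusted p = 0.734) with 10 arrays. It was called at -0.61 ± 0.11 (SE, limma adjusted p = 0.0330) with control mouse 1 left out, which held with 2 of the other 9 arrays left out in turn. The mean of 8 T cell markers, of 9 on the array, was 5.39 to 5.49 in stressed mice, 5.58 to 5.96 in control mice 2 to 5 and 5.43 in control mouse 1. Summed on the linear scale and then put on the log2 scale, these T cell markers ran from 8.82 to 9.35 in control and from 8.78 to 8.95 in stressed mice. For 5 B cell and Peyer patch markers, of 10 on the array, the mean was 4.94 to 5.16 in stressed mice, 6.62 in control mouse 5 and 4.80 to 5.48 in the other controls. Their sum ran from 7.57 to 9.18 and from 7.60 to 7.78, and Cr2, Pax5, Blk, Cxcr5 and Fcer2a were below the filter. The means of the T cell and neutrophil markers thus lay lower in every stressed mouse than in control mice 2 to 5, and their part in the Saa levels was not tested. The mean of 11 ileal enterocyte markers was 8.12 in control mouse 1, 10.35 to 10.60 in control mice 2 to 5 and 10.60 to 11.22 in stressed mice. By value 11 of the 11 were higher in stressed mice with 10 arrays and 9 without control mouse 1, the opposite direction to the Saa genes, and their part in the Saa levels was not tested. Their sum ran from 13.63 to 15.57 in control and from 15.53 to 15.83 in stressed mice. Fgf15, a hormone induced by bile acids, differed by 2.41 ± 0.65 (SE, limma adjusted p = 0.373) with 10 arrays. It was called at 1.73 ± 0.32 (SE, limma adjusted p = 0.0347) with control mouse 1 left out, which held with 1 of the other 9 arrays left out in turn. Cubn, the receptor for intrinsic factor and cobalamin, differed by 1.35 ± 0.56 (SE, limma adjusted p = 0.60) and was called at 0.70 ± 0.11 (SE, limma adjusted p = 0.0245) in the same settings, which held with 6 of 9. Goblet cell markers averaged 12.02 ± 0.18 (SD, n = 5) and 11.97 ± 0.12 (SD, n = 5) in control and stressed mice, and pancreatic acinar markers 5.89 ± 0.49 (SD, n = 5) and 5.56 ± 0.09 (SD, n = 5).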

How the data were processed

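The values are log2 intensities per probe set, deposited by the authors for 10 arrays after RMA, per the submitters' processing notes, a method that corrects background, quantile-normalizes arrays and summarises probes. Its software and version: not given in the sources used here. Base 2 was taken from the range of 1.22 to 14.4. RMA gives all arrays 1 distribution (medians 4.78 to 4.82), so changes in total RNA cannot be seen. RNA was labelled from 100 ng with a 3′ kit per the labels' protocols. Arrays carry no read depth, and their number limits the precision.

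Symbols came from the platform annotation: of 45101 probe sets, 34945 had 1 symbol, 932 several and 9160 none, and 64 were controls. Probe sets in the lowest 40 percent by mean (4.15) were left out and a gene with several probe sets was read by the brightest on average. Groups came from the titles. The labels give 1 mouse a sample but not whether mice shared a cohort, so p-values measure the spread between these samples. Stressed and control mice were compared with limma 3.58.1 in R 4.3.3 (lmFit, eBayes, Benjamini-Hochberg adjustment over all tested genes, called under 0.05), tested on simulated data. SE is from that fit. Promoter windows were aligned with Biopython 1.88.

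The members and gene lists were chosen with earlier results of these data known. The rule for naming genes took the members, the 3 genes of smallest p in each list and any called, the 6 genes most like each member by correlation of deviations from group means, and 3 neighbours on either side. Samples with the same number did not deviate together: the correlations were 0.13, 0.28, 0.00, -0.30 and 0.04. Alternatives left out each array in turn, changed the filter, the probe set, the weights, the variance prior or the centring, or used the number as a block.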

Additional observations from a re-analysis of the deposited data

Results flagged for a closer look

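A mouse lay outside its group, by a gap that took most of the group's range, in 22 of 210 groups of 5 values examined for the genes of the report and its lists, where chance gives about 1 in 20. Neither Saa1, Saa2, Saa3 nor Saa4 was among them on any probe set, stressed mouse 5 included. Control mouse 1 was the mouse in 14 cases. It was low for Apob (9.52, next value 11.70), Apoc2 (5.48), Bco1 (4.76), Cubn (7.18), Fabp6 (7.88), Il18 (8.32), Nr1h3 (5.73), Rdh7 (3.35) and Reg3g (9.39), and high for Aqp8 (7.50), Car1 (14.17), Hoxd10 (7.30), Tlr2 (8.59) and Tph1 (7.98). Stressed mouse 4 was high for Aqp8 (7.26) and Tlr2 (5.78), the only genes flagged for this mouse. Car1 (13.32) and Hoxd10 (4.46) were also highest of the stressed group in this mouse but were not flagged in it. In the remaining cases Il22ra2 was low in control mouse 3 (6.25) and in stressed mouse 5 (6.07), and Nr1h3 was low in stressed mouse 1 (6.52). Among genes below the filter on low values, Hpx was high in control mouse 4 (3.76), and Il12b (3.05) and Orm1 (4.68) were high in stressed mouse 5.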

How the results depend on the processing

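The differences of Saa1, Saa2 and Saa3 kept their sign and moved by less than 1 SD between mice under every setting run: Saa1 from -3.30 to -1.94 with a mouse left out and -2.0 as a ratio of arithmetic means, Saa2 from -2.48 to -1.70, and Saa3 from -1.90 to -1.24. With the replicate number as a block 0 genes were called, as without it. The count of genes called, 0 with 10 arrays, was 0 to 109 with 1 mouse left out (109 without control mouse 1, 2 without stressed mouse 2), 41 with array weights and 2 with the mean of all probe sets. With a further mouse left out besides control mouse 1, a choice made after seeing the data, it was 6 to 154. For the pathway lists the counts were 0 to 5, 3 with array weights, 1 with the mean of all probe sets, 1 without stressed mouse 2, and 2 to 8 with a further mouse left out. The cause of these moves was not tested. With 1 mouse left out, sign changes were seen for 5 of 45 genes: Reg3g (-0.80 to 0.40; -0.80 without control mouse 1, -0.02 without stressed mouse 2, -0.65 with array weights), Tph1 (-0.37 to 0.23; 0.23 and 0.22 without control mouse 1 and with array weights), Apoc2 (-0.68 to 0.0116; 0.0116 without control mouse 2), Hps5 (-0.0249 to 0.14; -0.0249 without control mouse 3, -0.0021 without stressed mouse 2) and Ldha (-0.0492 to 0.0115; 0.0115 without stressed mouse 1). Of the 6 genes most like Saa1, 1 stayed in the first 100 by Spearman rho and 0 without the 2 arrays farthest from the median. For Saa2 these were 1 and 0, and 3 by levels, and for Saa3 1 without the 2 arrays. Low signal limits Saa4.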

Other observations

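Between Saa2 and Saa3 in the order of differences with 10 arrays stood 5 genes, picked by that size and therefore given with no test. Slc6a14, an amino acid transporter, differed by -2.0 ± 0.53 (SE). Gzma, a granzyme of cytotoxic lymphocytes, differed by -1.77 ± 0.72 (SE). Slc9a3, the sodium-hydrogen exchanger of the brush border, differed by -1.70 ± 0.45 (SE), Ubd, an inducible ubiquitin-like protein, by -1.62 ± 0.41 (SE), and Mcpt2, a mast cell protease, by -1.58 ± 0.40 (SE).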
